A study of Mus musculus with 26 samples.

Results

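The C/EBP transcription factors measured here are the genes *Cebpa*, *Cebpb*, *Cebpd* and *Cebpg*. They were taken from the array by their gene symbols, with *Cebpz* as the fifth name of the group, and each of the 4 has 1 probe set among 19938 genes with a symbol of their own. *Cebpz* was not analysed here. Cells were neurospheres (NSPs), primary cultures of neural stem cells from the ventricular zone of C57BL/6J mouse embryos at embryonic day 14. The cells carried no transgene in the labels, and whether embryos were pooled is not given in the sources used here. RNA was taken from undifferentiated cells at 0 h, and after 6, 24, 48 and 72 h in medium with 10% foetal bovine serum, which drives these cells towards astrocytes. In parallel, cells received the same serum together with TNF at 50 ng/mL for 6, 24, 48 and 72 h. The 26 arrays fall into 9 conditions of 3 arrays each, except that TNF at 72 h has 2. "Untreated" below stands for serum without TNF, and at 0 h for cells before serum. Per the paper, neurospheres were grown in medium with epidermal growth factor and differentiated in serum medium on plates coated with poly-L-ornithine. Comparisons with 0 h therefore cover the change of medium and surface together with serum.

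C/EBP proteins carry a basic region that contacts DNA and a leucine zipper through which they bind one another in pairs, so that the set of members present decides which pairs can form. C/EBPβ and C/EBPδ are known from the acute phase response, in which TNF, IL-1 and IL-6 raise them and they in turn act on genes for secreted defence proteins. C/EBPα is known for the maturation of fat, liver and myeloid cells, and C/EBPγ, which has no activation domain of its own, acts as a partner of other members and of ATF4. *Cebpz* shares the name, because its product was found to bind a CCAAT sequence, but it belongs to the factors that assemble ribosomes in the nucleolus. In the brain, astrocytes exposed to inflammatory cytokines are known to express C/EBPβ and C/EBPδ.

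*Cebpd* lies on chromosome 16 (GRCm38.p6, chr16:15887286-15889545) and *Cebpb* on chromosome 2 (chr2:167688915-167690432). *Cebpa* (chr7:35119293-35121928) and *Cebpg* (chr7:35046422-35056566) are neighbours on chromosome 7 that are read in opposite directions, with 62726 bases and 1 annotated gene, which is not protein-coding, between them. The 250 bases upstream of the RefSeq start are printed for the 3 members with a promoter window in the source used here. They are *Cebpb*, which rose with TNF, and the pair *Cebpg* and *Cebpa*, which was not called. No window was at hand for *Cebpd*, so its promoter was not searched. The windows are chr2:167688665-167688914 (plus strand) for *Cebpb*, chr7:35056567-35056816 (minus strand) for *Cebpg* and chr7:35119043-35119292 (plus strand) for *Cebpa*, and capitals mark the motifs described after them.
Cebpb: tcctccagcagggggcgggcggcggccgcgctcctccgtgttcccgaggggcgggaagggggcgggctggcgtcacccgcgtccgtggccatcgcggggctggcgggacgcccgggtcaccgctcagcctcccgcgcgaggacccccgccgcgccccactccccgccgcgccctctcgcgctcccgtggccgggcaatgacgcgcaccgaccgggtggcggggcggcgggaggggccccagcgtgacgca
Cebpg: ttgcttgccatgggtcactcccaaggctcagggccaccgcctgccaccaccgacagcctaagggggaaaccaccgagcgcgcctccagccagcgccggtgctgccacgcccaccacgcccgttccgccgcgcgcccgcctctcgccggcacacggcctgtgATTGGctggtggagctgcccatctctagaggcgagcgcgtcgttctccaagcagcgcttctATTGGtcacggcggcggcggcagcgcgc
Cebpa: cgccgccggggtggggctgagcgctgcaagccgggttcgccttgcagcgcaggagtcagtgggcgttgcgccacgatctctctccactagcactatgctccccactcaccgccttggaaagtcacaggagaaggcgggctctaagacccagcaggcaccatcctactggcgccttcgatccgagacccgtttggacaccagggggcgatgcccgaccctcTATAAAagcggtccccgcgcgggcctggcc

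In these windows 9 motifs were searched on both strands. They were the CCAAT box (CCAAT), the TATA box (TATAAA), a C/EBP palindrome (TTGCGCAA), a joint C/EBP and ATF site (TGATGCAA), the cAMP response element (TGACGTCA), the AP-1 site (TGANTCA), a STAT site (TTCNNNGAA), the E-box (CACGTG) and the NF-κB consensus. The *Cebpg* window holds the CCAAT box at 2 places on the reverse strand, from -89 to -85 and from -28 to -24 relative to the start, where it reads ATTGG. The *Cebpa* window holds a TATA box from -30 to -25, and the found motifs do not overlap. None of the 9 motifs was found in the *Cebpb* window, which says only that these letters are not in these bases. Among 32851 mouse promoter windows of the same length, 33.8% hold the CCAAT box, 12.4% the TATA box, 0.164% the C/EBP palindrome and 0.791% the joint C/EBP and ATF site. The cAMP response element is found in 1.55% of them, the AP-1 site in 6.75%, the STAT site in 7.02%, the E-box in 6.02% and the NF-κB consensus in 3.9%. The *Cebpb* window is rich in G and C (81.6%, with 41 CpG), and 99.3% of the windows have a lower share. That share was 70.8% for *Cebpg* and 66.4% for *Cebpa*, and the median of all windows was 52.4%.

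*Cebpd* was the member with the widest response. TNF raised it 4.82-fold at 6 h, 3.43-fold at 24 h, 2.59-fold at 48 h and 2.34-fold at 72 h, and it also rose in untreated cells between 24 and 48 h of differentiation. *Cebpb* rose 2.15-fold at 6 h and 1.66-fold at 24 h with TNF. *Cebpg* and *Cebpa* were not called in any of these comparisons. Levels below are log2 signals of the deposited table, in which a step of 1 is a doubling, and signals of different genes are not set against each other because probe sets differ in brightness. A gene was called when the q-value of the limma fit over all probe sets was under 0.05.

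**Figure D1:**
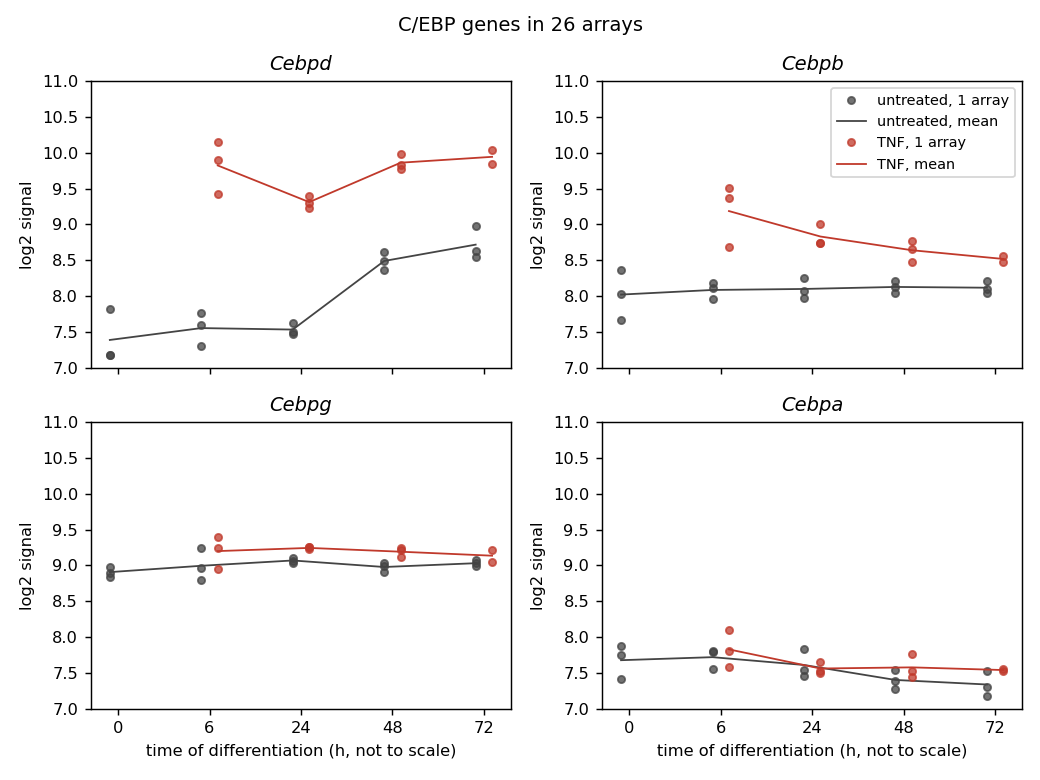
Log2 signals of *Cebpd*, *Cebpb*, *Cebpg* and *Cebpa* (vertical axis) in each of the 26 arrays, by time of differentiation in h (horizontal axis, not to scale), with untreated cells in grey, TNF in red and lines through the means of the conditions. The TNF arrays of *Cebpd* and *Cebpb* lie above the untreated arrays at all 4 times, and the untreated *Cebpd* arrays at 48 and 72 h lie between 8.36 and 8.97, above those of the earlier times.

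In cells before serum, *Cebpd* had signals of 7.82, 7.17 and 7.17 in replicates 1, 2 and 3. Without TNF it was at 7.76, 7.60 and 7.30 at 6 h and at 7.47, 7.50 and 7.63 at 24 h. These 9 arrays overlapped, and the means of 6 h and 24 h differed from 0 h by 0.17 and 0.15 on the log2 scale (limma, SE 0.178 for both, q = 0.567 and q = 0.312). At 48 h the untreated arrays read 8.49, 8.36 and 8.61, and at 72 h 8.63, 8.55 and 8.97. All 6 lay above every earlier untreated array, and the rise over 0 h was 1.10 after 48 h (q = 0.000129) and 1.33 after 72 h (SE 0.178, q = 8.72e-06), or 2.15-fold and 2.51-fold.

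With TNF, *Cebpd* read 10.15, 9.90 and 9.42 at 6 h, the highest single array of the series being replicate 1 of this condition. At 24 h the TNF arrays read 9.24, 9.30 and 9.40, at 48 h 9.78, 9.82 and 9.98, and at 72 h 9.85 and 10.04. At each time all TNF arrays were above all untreated arrays, and the lowest TNF array of the series was above the highest untreated one. After 6 h the log2 difference from untreated cells was 2.27 (limma, SE 0.178, q = 2.58e-07), and after 24 h it was 1.78 (q = 4e-06). It was 1.37 after 48 h (q = 8.9e-05) and 1.23 after 72 h (SE 0.199, q = 0.00184). By size of the change, *Cebpd* ranked 14, 26, 63 and 76 at the 4 times among 21789 probe sets with a single symbol, highest first. Without replicate 2 of TNF at 72 h, which leaves 1 TNF array whose spread is taken from the other groups, the difference was 1.13 (q = 0.0854), and that array still lay above all untreated arrays. In a fit to the 6 h arrays alone the difference at 6 h had a q-value of 0.0618.

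Arranged by mean, *Cebpd* was highest at 72 h with TNF (9.94 ± 0.134, SD, n = 2), followed by TNF at 48 h (9.86 ± 0.109, n = 3) and at 6 h (9.82 ± 0.369, n = 3), and the arrays of these neighbours overlapped. TNF at 24 h came next (9.31 ± 0.0808, n = 3), with arrays below all of those 3 conditions and above all untreated arrays. Untreated cells at 72 h (8.72 ± 0.226) and 48 h (8.49 ± 0.126) overlapped with each other and with no other condition. Untreated cells at 6 h (7.55 ± 0.234), 24 h (7.53 ± 0.0855) and 0 h (7.39 ± 0.373) formed the low end and overlapped. Between 6 h and 72 h the TNF means lay from 9.31 to 9.94, and the untreated means went from 7.55 to 8.72. The *Cebpd* effect was 0.49 smaller at 24 h than at 6 h, 0.90 smaller at 48 h and 1.04 smaller at 72 h on the log2 scale. The last 2 had unadjusted p-values of 0.0019 and 0.000848 in limma, and adjusted over all probe sets none passed (q = 1, 0.515 and 0.307). These comparisons share the 6 h arrays.

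*Cebpb* had signals of 8.36, 8.03 and 7.67 at 0 h, the widest spread of its untreated conditions. Without TNF it read 8.18, 8.11 and 7.96 after 6 h and 8.25, 7.98 and 8.07 after 24 h, followed by 8.13, 8.04 and 8.22 (48 h) and 8.04, 8.10 and 8.21 (72 h). The untreated conditions overlapped throughout, and the differences from 0 h ran from 0.06 to 0.11 with 95% confidence intervals from -0.30 to 0.47 at the widest. With TNF it read 9.37, 9.51 and 8.68 at 6 h, so that replicate 3 responded less than the other arrays. The later TNF arrays read 8.74, 9.01 and 8.74 after 24 h, 8.48, 8.66 and 8.78 after 48 h, and 8.56 and 8.48 after 72 h. At all 4 times the TNF arrays were above the untreated arrays of that time.

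The *Cebpb* difference was 1.10 at 6 h (limma, SE 0.173, q = 0.00213) and 0.73 at 24 h (SE 0.173, q = 0.0478). It was 0.51 at 48 h (95% interval 0.15 to 0.87, q = 0.29) and 0.40 at 72 h (95% interval -0.0028 to 0.81, q = 0.521), and neither passed the threshold. The call at 24 h sat at the threshold: with single arrays left out, the difference ran from 0.64 to 0.81. The call was lost in 20 of 26 such fits, with q-values above 0.05 that reached 0.308 without replicate 2 of TNF at 24 h. In a fit to the 6 h arrays alone the 6 h difference had a q-value of 0.598. By size of the change *Cebpb* ranked 57, 251, 486 and 753 at the 4 times. The *Cebpb* effect was 0.37, 0.59 and 0.70 smaller at 24, 48 and 72 h than at 6 h, with unadjusted p-values of 0.147, 0.026 and 0.0139 in limma and q-values of 1. In order of their means, the TNF conditions of *Cebpb* fell with time, from 9.19 ± 0.443 (SD, n = 3) at 6 h to 8.52 ± 0.0568 (n = 2) at 72 h, but neighbours in this order overlapped, and the only gap between neighbours lay between TNF at 72 h and untreated cells at 48 h (8.13 ± 0.0898).

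*Cebpg* stayed within a narrow band, from 8.79 to 9.40 over the 26 arrays. Its condition means ran from 8.91 ± 0.0734 (SD, n = 3) at 0 h to 9.24 ± 0.0161 (n = 3) with TNF at 24 h, and all neighbours in the order overlapped. At 24 h the TNF arrays (9.26, 9.23 and 9.25) lay above the untreated ones (9.10, 9.04 and 9.07), and the same held at 48 h (9.24, 9.22 and 9.12 against 9.03, 8.92 and 8.99). At 6 h and 72 h they overlapped, although at 6 h, where replicate numbers paired the arrays, TNF was higher in all 3 pairs, by 0.163, 0.164 and 0.288, and the fit with the replicate block did not call it. The differences were 0.21, 0.18, 0.21 and 0.10 from 6 h to 72 h (limma, SE 0.107 to 0.119, q = 0.713 to 1), and the upper ends of their 95% intervals were 0.43, 0.40, 0.44 and 0.35. With array weights, in a fit that did not reach its tolerance, the difference at 6 h was 0.32 and was called (q = 0.00601). Against 0 h, untreated cells differed by 0.07 to 0.16 (q = 0.175 to 0.593).

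*Cebpa* ranged from 7.18 to 8.10, at and around the medians of whole arrays (7.54 to 7.76). Detection calls were not used here, so whether this probe set was above background is not known. The 0 h arrays read 7.75, 7.87 and 7.41, and the untreated arrays at 72 h 7.30, 7.53 and 7.18, with overlap between them. The difference was -0.34 (limma, SE 0.145, q = 0.0581), and at 48 h it was -0.28 (q = 0.165). With the replicate number as a block the q-value at 72 h was 0.0215, and without replicate 3 of 0 h it was 0.0142 with a difference of -0.47. TNF and untreated arrays overlapped at all times, with differences of 0.11, -0.05, 0.18 and 0.20 (q = 0.801 to 1) and 95% intervals reaching from -0.35 to 0.54 at the widest.

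Counted over the 4 measured members, TNF raised 2 at 6 h (*Cebpb* and *Cebpd*), the same 2 at 24 h, and *Cebpd* at 48 h and at 72 h, and lowered none. Of all 35556 probe sets, the share called higher with TNF was 0.312%, 0.627%, 0.773% and 0.596% from 6 h to 72 h, and the share called lower 0.0141%, 0.236%, 0.264% and 0.554%. At an unadjusted p under 0.05 in limma, the members were 2, 2, 2 and 1, of which *Cebpb* at 48 h is the one not called. In untreated cells against 0 h, no member was called at 6 h or 24 h (0 at an unadjusted p under 0.05 as well), and *Cebpd* rose at 48 h and 72 h. The share of all probe sets called higher in untreated cells was 4.64%, 10.0%, 8.99% and 12.6% from 6 h to 72 h, and called lower 3.03%, 6.51%, 6.97% and 10.2%. For the difference of the TNF effect from that at 6 h, 0 of 4 members were called at 24, 48 or 72 h, where 0.0253%, 0.104% and 0.124% of all probe sets were called. At an unadjusted p under 0.05 there were 0, 2 and 2 members. The TNF and time comparisons share untreated arrays.

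**Figure D2:**
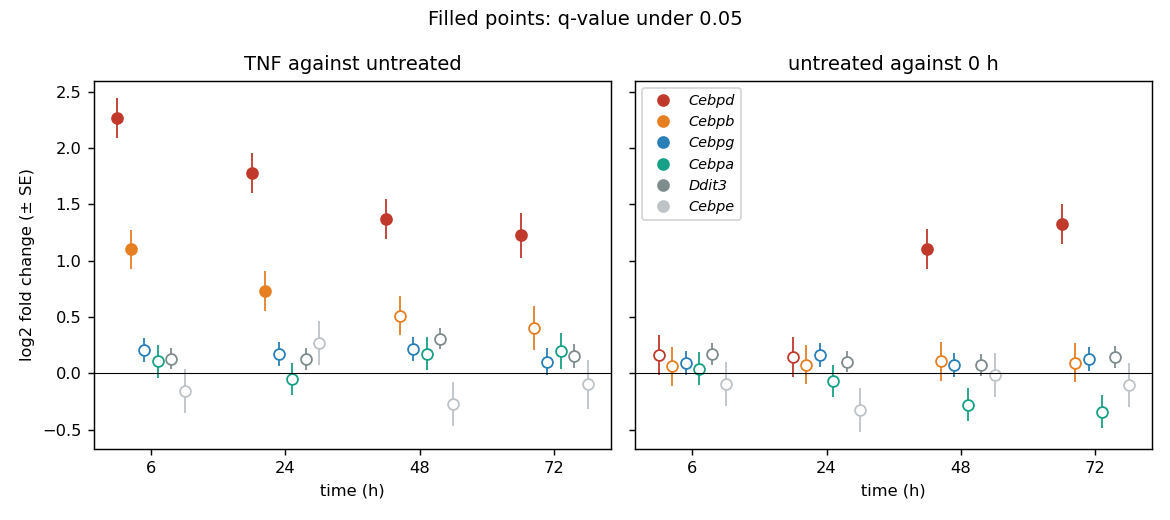
Log2 fold changes of 6 genes of the C/EBP family (vertical axis, bars are SE of the limma fit) by time in h (horizontal axis), for TNF against untreated cells on the left and untreated cells against 0 h on the right, with filled points where the q-value was under 0.05. *Cebpd* is filled at all 4 times on the left and at 48 and 72 h on the right, *Cebpb* at 6 and 24 h on the left, and all other points are open.

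The variation of *Cebpd* lay almost wholly between conditions (96.7% of its variance over the 26 arrays, with a range of condition means of 2.56 and a pooled SD within conditions of 0.225). For *Cebpb* that share was 83.3% (range 1.17, SD 0.219), for *Cebpg* 56.1% (0.34, SD 0.121) and for *Cebpa* 50.5% (0.49, SD 0.178). Part of such a share arises from noise alone, because the means of 9 conditions were taken from 26 arrays. *Cebpg* and *Cebpa* were not called in the main fit. As a description over the 26 arrays, which share conditions and the normalization, *Cebpb* and *Cebpd* had a Pearson correlation of 0.79, *Cebpd* and *Cebpg* of 0.61, and *Cebpb* and *Cebpg* of 0.59. The neighbours *Cebpa* and *Cebpg* had 0.25, and *Cebpa* and *Cebpd* -0.02.

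The other family members on the array were *Cebpe*, a factor of granulocyte maturation, and *Ddit3*, whose product CHOP dimerizes with C/EBP proteins under stress and keeps them from their usual sites. *Ddit3* was between 8.60 and 8.92 with TNF over all times and between 8.46 and 8.70 in untreated cells after serum. Its TNF arrays lay above the untreated ones at 48 and 72 h, with differences of 0.31 (limma, q = 0.199) and 0.15 (q = 0.775), and overlapped at 6 and 24 h. *Cebpe* was between 6.60 and 7.51 over the arrays in serum, below the medians of whole arrays, and its groups overlapped at every time.

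Among 18 bZIP genes that are relatives of the 4 members or partners of their zipper, *Cebpe* and *Ddit3* included, 3, 3, 1 and 1 rose with TNF at the successive times and none fell. Of all probe sets, 0.312%, 0.627%, 0.773% and 0.596% were called higher with TNF at these times and 0.0141%, 0.236%, 0.264% and 0.554% lower. *Junb*, a subunit of AP-1, was called at all 4 times, with 1.54 at 6 h (limma, SE 0.202, q = 0.000253) and 1.25 at 72 h (q = 0.00577). *Atf3*, a stress-induced repressor, rose by 1.22 at 6 h and 0.93 at 24 h, and *Nfil3*, a repressor that shares the DNA site of the PAR family, by 0.62 and 0.57. The medians of the list were 0.06, 0.08, 0.10 and 0.15, beside -0.04, 0.01, -0.02 and -0.02 over all probe sets. In untreated cells against 0 h, 3, 3, 2 and 2 of these genes rose and 6, 4, 4 and 5 fell. In the same comparisons, 4.64%, 10.0%, 8.99% and 12.6% of all probe sets were called higher and 3.03%, 6.51%, 6.97% and 10.2% lower. *Atf3* rose there at every time (2.17 at 6 h), while the AP-1 subunits *Fos* and *Jun* were lower at every time (log2 differences of -1.81 and -0.49 at 6 h).

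Of the cytokine receptors and regulators known to act upstream of C/EBP genes, 21 were measured. TNF raised 6 of them at 6 h, then 3 at each of the other times, and lowered none. From 6 h to 72 h, TNF raised 0.312%, 0.627%, 0.773% and 0.596% of all probe sets and lowered 0.0141%, 0.236%, 0.264% and 0.554%. *Il6ra*, the IL-6 receptor chain, and the NF-κB subunits *Relb* and *Nfkb2* were called at all 4 times, and *Relb* reached 1.69 at 72 h (limma, SE 0.149, q = 8.46e-07). *Osmr*, the oncostatin M receptor, rose at 6 h by 1.49 (SE 0.26, q = 0.00665), together with *Stat3* (0.53), which carries signals of this receptor family, and its feedback inhibitor *Socs3* (0.94). The list medians were 0.39 at 6 h and 0.08, 0.01 and 0.04 later, beside -0.04, 0.01, -0.02 and -0.02 over all probe sets.

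In untreated cells against 0 h, 3, 4, 6 and 6 of these 21 genes rose and 5, 4, 3 and 3 fell. Among all probe sets, 4.64%, 10.0%, 8.99% and 12.6% were called higher and 3.03%, 6.51%, 6.97% and 10.2% lower. *Osmr* and the shared receptor chain *Il6st* were called higher at all 4 times (2.12 and 1.05 at 6 h, 3.87 and 1.80 at 48 h). *Il6ra* (0.85, q = 0.00192), *Stat3* (0.38) and *Socs3* (0.93) were called higher at 48 and 72 h. The part of these genes in the level of *Cebpd* was not tested. *Trib2*, an adaptor known to send C/EBPα to degradation, was lower at every time, with log2 differences of -1.36 at 6 h and -1.76 at 72 h.

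A list of 25 measured acute phase and inflammatory genes described as targets of C/EBP factors had 6, 5, 4 and 3 members higher with TNF from 6 h to 72 h and none lower. The shares of all probe sets called with TNF were 0.312%, 0.627%, 0.773% and 0.596% higher and 0.0141%, 0.236%, 0.264% and 0.554% lower. *Lcn2*, which encodes an iron-binding defence protein, reached 5.68 at 24 h (limma, SE 0.348, q = 2.86e-09). The chemokine gene *Ccl2* rose by 5.26 at 6 h and the metalloreductase gene *Steap4* by 4.50 at 24 h, and these 3 were called at all times. *Cp*, for the copper carrier ceruloplasmin, was called up to 48 h, *Ptgs2*, for cyclooxygenase-2, at 6 and 24 h, and the pentraxin gene *Ptx3* at 6 h. The other 19 genes were not called with TNF, among them *Saa3* (1.26 at 24 h) and *Serpina3n* (1.39 at 6 h). The medians of the list were 0.07, 0.18, -0.01 and 0.08, beside -0.04, 0.01, -0.02 and -0.02 over all probe sets.

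**Figure D3:**
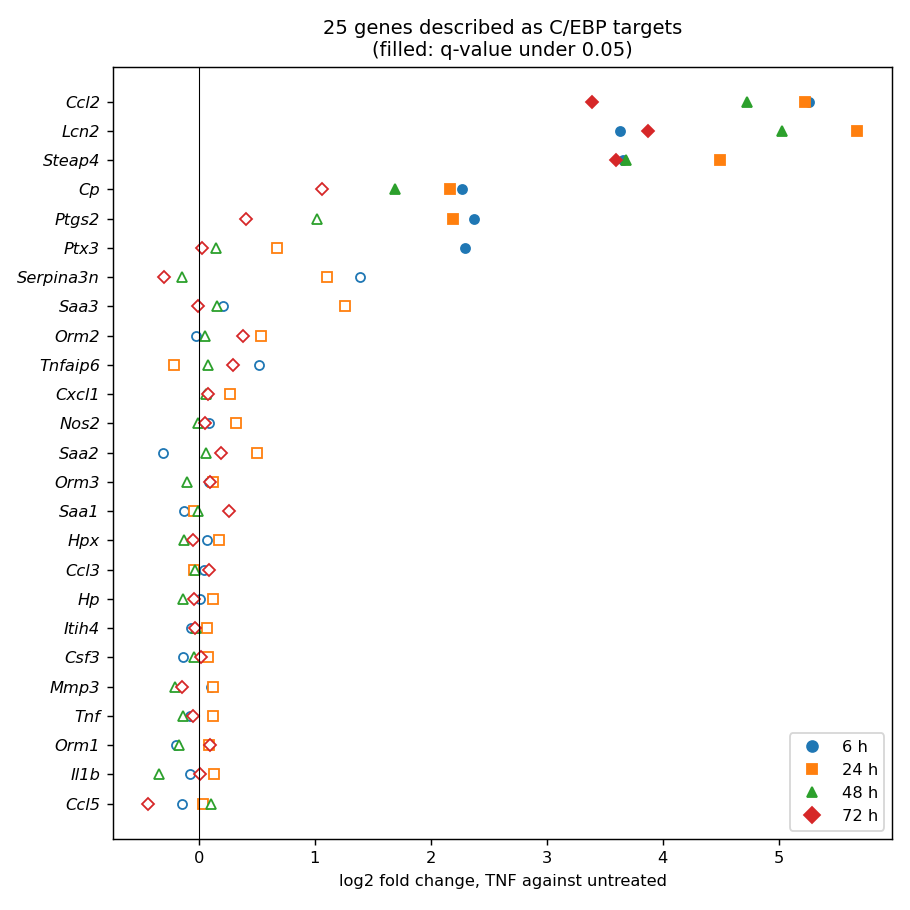
Log2 fold changes with TNF against untreated cells (horizontal axis) of 25 genes described as C/EBP targets (vertical axis, ordered by their mean), with a marker for each time and filled markers where the q-value was under 0.05. *Ccl2*, *Lcn2* and *Steap4* stand between 3.39 and 5.68 at all times, and 19 of the 25 genes have no filled marker.

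Without TNF, 1, 1, 4 and 6 of the 25 genes were higher than at 0 h at the 4 times, and 0, 1, 1 and 2 were lower. Over all probe sets, 4.64%, 10.0%, 8.99% and 12.6% were called higher and 3.03%, 6.51%, 6.97% and 10.2% lower. At 48 h the listed genes called higher were *Serpina3n* (3.17), *Cp* (1.74), *Steap4* (1.26) and *Lcn2* (1.08), and at 72 h *Ccl2* (0.95) and *Ccl5* (0.38) were added. *Lcn2* stood at 2.69 and *Serpina3n* at 3.94 at 72 h. *Tnfaip6* was lower at 24, 48 and 72 h.

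The genes whose 26 values were most like those of *Cebpd*, among 21788 compared, were *Il6ra* (Pearson r = 0.969, and 0.99 over the 9 condition means), the chemokine gene *Cxcl10* (0.951 and 0.965) and *Steap4* (0.932 and 0.953). *Il6ra* rose with TNF by 1.38, 1.18, 0.95 and 1.01 at the 4 times, and without TNF by 0.85 at 48 h. For *Cebpb* they were the chemokine gene *Ccl7* (0.911 and 0.967), *Bid*, a member of the BCL-2 family that promotes cell death (0.892 and 0.971), and *Gch1*, for the first enzyme of tetrahydrobiopterin synthesis (0.888 and 0.959). *Cebpg* was most like *Ubtd2* (0.833), *Lix1l* (0.819) and *Rnf217* (0.814), and *Cebpa* most like *Abhd17c* (0.833), 5730408K05Rik (0.818) and *Piezo1* (0.80). These values describe the likeness of patterns over arrays that share conditions, and genes were picked for it.

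**Figure D4:**
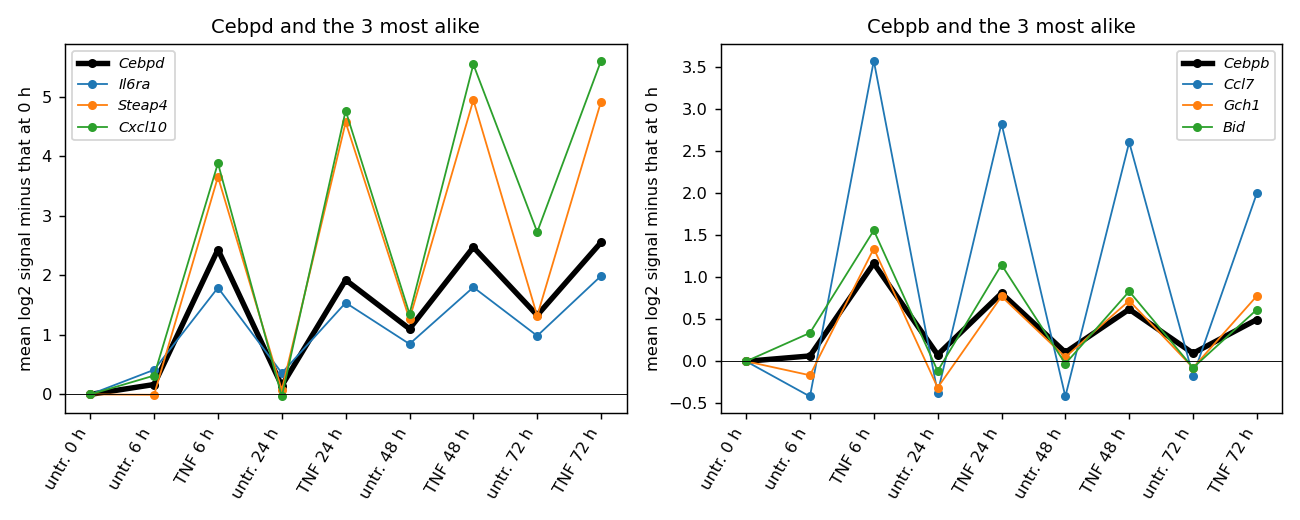
Mean log2 signal minus that at 0 h (vertical axis) in the 9 conditions (horizontal axis), for *Cebpd* (left, thick black line) and *Cebpb* (right, thick black line), each with the 3 genes of highest correlation over the 26 arrays. In the left panel all 4 genes rise with TNF at each time and also without TNF at 48 and 72 h, while in the right panel untreated cells stay within 0.5 of 0 h.

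Cells of the culture were checked by markers. *Gfap*, the intermediate filament of astrocytes, was higher than at 0 h by 2.49, 4.33, 4.52 and 4.54 at the 4 times, and *Aqp4* by 2.21 at 72 h. Of the 12 astrocyte markers 1, 4, 5 and 5 were higher than at 0 h at the successive times and 2, 1, 0 and 0 lower, while *Cebpd* was called higher at 48 and 72 h only. Of 8 endothelial and mural markers 1, 1, 2 and 3 were higher and none lower. *Acta2*, a gene of smooth muscle and mural cells, was called at all 4 times (4.33 at 6 h). Of the endothelial genes, *Kdr* was called higher at 72 h (0.59, limma, q = 0.0231), and *Pecam1*, *Cdh5*, *Tek* and *Cldn5* were not called at any time. The mural gene *Rgs5* was called higher at 48 and 72 h (0.46 and 0.55). Of 8 oligodendrocyte lineage markers none was higher and 3, 3, 3 and 4 were lower, with *Olig1*, *Olig2* and *Cspg4* lower at all 4 times. Of 7 stem and progenitor markers 0, 1, 2 and 2 were higher and 0, 1, 2 and 2 lower. At 72 h *Nes* and *Prom1* were higher (0.98 for both), and *Hes5* and *Mki67* lower (-2.17 and -2.99). Of 7 neuron markers 1, 1, 0 and 1 were higher and 0, 0, 0 and 1 lower. The shares of all probe sets called higher were 4.64%, 10.0%, 8.99% and 12.6%, and called lower 3.03%, 6.51%, 6.97% and 10.2%. Of 15 microglia and macrophage markers none was called in untreated cells (limma, 1, 0, 0 and 0 at an unadjusted p under 0.05), and with TNF *Cd68* alone was called, at 24 h (2.13, q = 0.00949). The log2 of the summed signals of these 15 ran from 10.83 to 11.30 without TNF and from 11.52 to 12.37 with TNF at 24 h. *Cd68* carried this gain, and without it the sum of the remaining 14, a setting chosen after seeing the data, overlapped (10.44 to 10.60 against 10.47 to 10.81). The sum of all 15 overlapped between the groups at 6, 48 and 72 h. With TNF the mean signal of the astrocyte markers was lower without overlap at 24 h (12.09 to 12.26 against 12.40 to 12.57), 48 h (12.23 to 12.41 against 12.57 to 12.67) and 72 h (12.23 to 12.31 against 12.49 to 12.67), and 1 of the 12 markers was called lower, *Gja1* at 24 h (-1.10). The part of these markers in the C/EBP results was not tested, and in such bulk RNA more cells of a type cannot be told apart from more RNA per cell.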

How the data were processed

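The deposited values are log2 signals of mouse gene arrays, which the authors made from the scanned arrays by RMA with the oligo package in R 3.3.1 (tools per the labels' processing notes). Which versions of oligo and RMA ran is not given in the sources used here. RMA subtracts background, makes the distributions of all arrays alike and combines the probes of a probe set, which narrows differences of very dim and very bright probe sets. All 26 columns were mapped to samples by their labels. No pair of arrays was identical, and correlations between arrays were 0.947 to 0.996. Gene symbols came from the platform table (21789 probe sets with 1 symbol, 1621 with several, 12146 with none), and positions and promoter windows from RefSeq (GRCm38.p6), which held windows for 3 of the members.

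limma 3.58.1 in R 4.3.3 fitted the means of 9 groups to all 35556 probe sets. TNF was compared with untreated cells at each time, untreated cells with 0 h, and the TNF effect at later times with that at 6 h. Q-values were computed with an own smoother for the share of unchanged probe sets, checked on simulated data, and a q-value under 0.05 was a call. The 3 arrays of a group, or 2, limit the precision. The p-values measure the spread between arrays within groups, pooled over the 9 groups and moderated over all probe sets. The sample titles number the replicates and do not say whether they are separate cultures. The main fit did not use these numbers. The alternatives were Benjamini-Hochberg adjustment, a q-value under 0.01, a fit to only the arrays compared, array weights, cyclic loess, a robust prior with an intensity trend, the replicate number as a block, leaving out the dimmest 40% of probe sets, only probe sets with 1 symbol, and each array left out.

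The C/EBP members and the 12 gene lists (185 entries, 176 measured) were chosen with earlier results of these data known. The named genes are the members, *Cebpe* and *Ddit3*, up to 3 genes a list called with TNF with the largest change, and the 3 probe sets of highest correlation with each member. A gene with several probe sets is given by that of the highest mean. Other names from the lists were chosen after their values were seen. Replicate numbers were taken to pair arrays only where the deviations of same-numbered arrays from their group means had a correlation over 0.1 in all of 3 pairs. Over all probe sets these were 0.674, 0.559 and 0.461 for 6 h, 0.384, 0.471 and 0.0263 for 24 h, and 0.309, 0.608 and -0.0238 for 48 h, with 0.0795 and -0.0156 in the 2 pairs at 72 h, so the pairing held at 6 h.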

Additional observations from a re-analysis of the deposited data

How the results depend on the processing

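Of 1540 recomputed values of the members, 1491 kept their side of the threshold, 26 lost a call and 23 gained one. None changed sign while called, but values that were not called could change sign. With 1 array left out, the difference of *Cebpa* with TNF at 24 h ran from -0.13 to 0.06. The number of members called with TNF was 0 at 6 h with only the arrays compared, and 3 with array weights, which added *Cebpg*. At 24 h it was 1 with a q-value under 0.01, with cyclic loess and with the intensity trend and robust prior, and 1 to 2 with 1 array left out. At 72 h it was 2 with only the arrays compared and with array weights, and 0 to 1 with 1 array left out. In untreated cells against 0 h, array weights called 3, 3, 2 and 3 members from 6 h to 72 h. At 72 h the replicate block, leaving out dim probe sets and single-symbol probe sets each called 2, and with 1 array left out the number was 1 to 2 at 48 h and at 72 h. Array weights called 1 member for the TNF effect at 48 h against 6 h (*Cebpd*, -1.12) and 2 at 72 h against 6 h (*Cebpd*, -1.25, and *Cebpb*, -0.66). The fit of array weights did not reach its tolerance. The replicate block changed no other call of a member, and cyclic loess moved the median of all probe sets by at most 0.0547. The cause of these changes was not tested.

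Over all probe sets, calls with TNF at 6, 24, 48 and 72 h were 116, 307, 369 and 409. They were 2215, 1623, 957 and 5497 with array weights, 11, 270, 199 and 2211 with only the arrays compared, 218, 586, 702 and 1179 with the replicate block, and 78, 173, 186 and 138 with a q-value under 0.01. With 1 array left out they ran from 73 to 175, 169 to 427, 171 to 495 and 98 to 630. In untreated cells 2727, 5870, 5677 and 8114 became 17556, 12461, 12614 and 14792 with array weights and 233, 1777, 1339 and 3211 with only the arrays compared. With the block they were 4707, 10418, 8519 and 12155, with a q-value under 0.01 1291, 2607, 3126 and 4533, and with Benjamini-Hochberg 3910 at 24 h. With 1 array left out they ran from 1512 to 4323, 2680 to 7641, 3426 to 7003 and 5461 to 9698. For the TNF effect against 6 h, 9, 37 and 44 became 258, 335 and 1559 with array weights and 18, 71 and 76 with the block. With only the arrays compared they were 2, 19 and 30, with a q-value under 0.01 they were 5, 20 and 21, and with 1 array left out 6 to 12, 18 to 43 and 15 to 46. At 24 h single-symbol probe sets gave 5 and leaving out dim ones 4.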

Other observations

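Of 13 measured fat cell and liver genes described as targets of C/EBPα, none was called with TNF at any time (limma, 0, 1, 3 and 1 at an unadjusted p under 0.05 from 6 h to 72 h), with medians of -0.14, 0.02, -0.17 and -0.09 at 6, 24, 48 and 72 h. In untreated cells 0, 3, 4 and 3 of them were higher than at 0 h and 0, 1, 1 and 2 lower. Of all probe sets, 4.64%, 10.0%, 8.99% and 12.6% were called higher and 3.03%, 6.51%, 6.97% and 10.2% lower. *Lpl*, the lipoprotein lipase, was up by 1.03 at 24 h, and *Igf1* by 0.89.

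Of 19 measured amino acid and stress response genes that ATF4 controls with C/EBP partners, *Gpt2*, an alanine aminotransferase, fell by 0.84 with TNF at 24 h (limma, q = 0.00199) and by 0.67 at 48 h, and the others were not called. During differentiation without TNF the list had medians of -0.33, -0.36 and -0.39 at 24, 48 and 72 h, beside -0.05, -0.04 and -0.05 over all probe sets, and 4, 3 and 7 of the 19 were lower, among them *Phgdh* and *Psph* of serine synthesis at 72 h (-0.61 and -0.53). The shares of all probe sets called lower in untreated cells were 6.51%, 6.97% and 10.2% at 24, 48 and 72 h. *Atf4* itself was lower by -0.42 at 72 h.

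Of 23 ribosome assembly factors, the group to which the product of *Cebpz* belongs, none was called with TNF (0, 0, 0 and 1 at an unadjusted p under 0.05 in limma). Their median was 0.31 with TNF at 6 h and 0.38 in untreated cells at 6 h against 0 h, beside -0.04 and -0.02 over all probe sets. In untreated cells at 6 h 1 gene, *Nop14*, was called higher, as were 4.64% of all probe sets. At 24, 48 and 72 h the untreated medians were -0.22, -0.20 and -0.15, and 0, 1 and 2 of the 23 genes were called lower. Of all probe sets, 6.51%, 6.97% and 10.2% were called lower at these times. Of 7 stem and progenitor, 7 neuron, 8 oligodendrocyte lineage and 8 endothelial and mural markers, none was called with TNF in limma. At an unadjusted p under 0.05 the stem and progenitor list had 1 at each time, the oligodendrocyte lineage list 1 at 6 h, the endothelial and mural list 1 at 24 h and 1 at 48 h, and the neuron list 0.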
